A study of Mus musculus with 14 samples.

Results

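The start of alveolar septation was examined by comparing whole mouse lungs at postnatal day 10 (P10, 2 arrays) with whole lungs at postnatal day 2 (P2, 2 arrays), 4 of the 14 arrays of the series. The series followed lung development in ICR mice, an outbred stock, over 7 time points with 2 arrays each: embryonic days 12, 14, 16 and 18 (E12 to E18), P2, P10 and postnatal day 30, called Adult here. The animals were untreated and carried no engineered allele. Lungs were dissected by hand and washed, total RNA was extracted from the tissue, and each sample was hybridised to an Affymetrix array whose probe sets report transcripts as log2 values. All probe sets other than 64 Affymetrix controls entered the comparison as deposited, 45037 in number, and 1 probe set, that of highest average over the 14 arrays, stood for each of 18193 genes. RNA was prepared from pooled lungs, as the study's methods give it. The labels do not state how many animals stand behind an array or whether the 2 arrays of a time point came from separate pools. The p-values rest on the spread between arrays of the same time point, pooled over all 7 time points. This spread may be technical.

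During septation, ridges rise from the walls of the saccules and lengthen into septa that divide them into alveoli, and the gas exchange surface grows. Myofibroblasts at the tips of the ridges respond to PDGF-A and lay down elastin, which is cross-linked by lysyl oxidases on a scaffold of microfibrils, while a double layer of capillaries is folded into each septum. At the same time the lung leaves the fetal growth programme, its airways continue to mature and its resident immune cells are replaced in waves. In whole lung tissue, fewer cells of a type and less RNA per cell cannot be told apart.

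Before any comparison, the arrays were set against their labels. The surfactant gene Sftpc read 14.82 and 14.81 at P2 and 14.80 and 14.76 at P10, and Ager, a marker of alveolar type I cells, lay between 14.1 and 14.2 on all 4 arrays. Every sample is labelled female. However, Xist, the RNA of the inactive X chromosome, lay between 6.88 and 7.41 on the 4 arrays of P2 and P10 and between 12.0 and 13.3 on the other 10. The Y-linked genes Eif2s3y (8.35 to 8.61) and Kdm5d (7.45 to 7.58) were higher on these 4 arrays than on any of the other 10. They were also well above the Adult lungs (2.86 to 3.60 and 3.09 to 3.39) on 7 of the 8 embryonic arrays, at 6.95 to 8.10 and 6.66 to 7.39, where Xist was high too. E16 replicate 2, at 3.13 and 3.49, was alone among the embryonic arrays in resembling the Adult lungs. The female label was thus met in these genes by 3 of the 14 arrays. The P2 and P10 arrays went against it in Xist as well, all 4 alike, so the comparison of P10 with P2 is not split by it, and it could not be repeated with arrays that matched the label. Correlation over all probe sets was 0.9977 between the P2 arrays, 0.9954 between the P10 arrays and 0.9906 to 0.9927 between the time points.

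Between P2 and P10, 876 genes rose (4.82% of genes tested) and 795 fell (4.37%) at an adjusted p under 0.05 in limma. Most of these changes were small. The median size of a called difference was 0.57 on the log2 scale, and 93.4% of all genes differed by less than 0.5. None of the 1671 called genes had overlapping P2 and P10 arrays, which choosing genes by their p-value makes likely. The share over all genes is not given here, so this count is not read as a result. A change of more than 1.2 with the higher level above 7 was found for 48 genes that rose (0.264%) and 48 that fell (0.264%). The numbers of small changes depended on single arrays. Without P2 replicate 1, 322 genes rose and 262 fell; without P2 replicate 2, 333 and 392; without P10 replicate 1, 905 and 563; and without P10 replicate 2, 334 and 470. With any 1 of these 4 arrays left out, 465 of the 1671 genes passed in every case, 237 higher and 228 lower, and the counts under the 4 omissions are given in brackets in this order for most groups of genes. Among the called genes named below, Aspn, Bmp6, Bnip3, Col2a1, Dll1, Dll4, Elf5, Foxf2, H2-DMa, Hoxa5, Myl7, Psmb9, Slc2a1 and Tgfbi passed in 0 of the 4 omissions. Counts of rises and falls in the groups below are to be read beside the shares over all genes, 4.82% and 4.37%. Among the groups near these shares were the rises of macrophage genes (7.14%) and xenobiotic genes (5.71%). So were the falls of Wnt genes (6.82%) and of TGF-beta and BMP genes (2.56%). Such counts are not read as changes of the group. The plot of difference against level shows the bulk of genes along the zero line at every level.

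**Figure D1:**
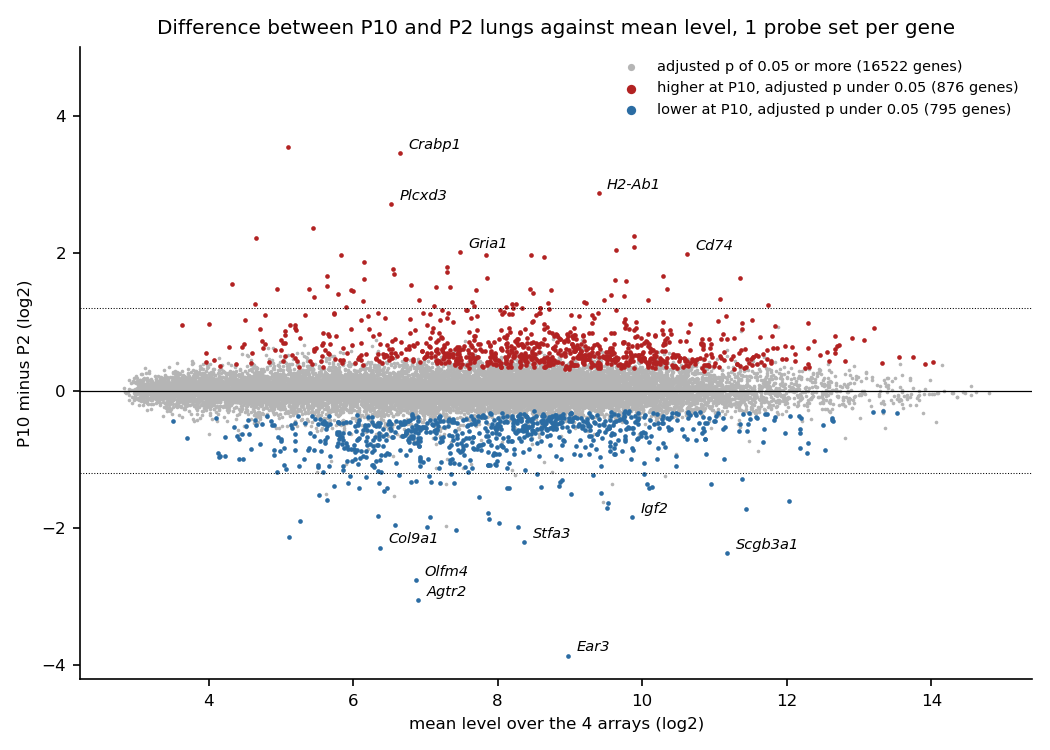
Difference between P10 and P2 (log2, vertical axis) against the mean level over the 4 arrays (log2, horizontal axis) for 18193 genes. Red points are the 876 genes higher at P10 and blue points the 795 lower at P10; the dotted lines mark 1.2 and -1.2.

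The 15 largest rises brought together antigen presentation, a retinoid-binding protein, a cell cycle inhibitor and several secreted proteins. Crabp1, which binds retinoic acid in the cytoplasm, read 5.14 and 4.70 at P2 and 8.35 and 8.40 at P10. This was the largest rise among genes with a level above 7, 3.46 (SE 0.20, adjusted p = 1.03e-06), or 11.0-fold. Its P2 arrays lay near the lower quartile of all probe sets (4.91 and 4.95), where the size of a change is less certain. Plcxd3, named for a phospholipase C catalytic domain, rose from 5.09 and 5.24 to 7.64 and 8.11, and Prokr2, a receptor for prokineticins, from 5.15 and 5.28 to 7.03 and 7.14. Cdkn2c encodes p18, an inhibitor of the G1 cyclin-dependent kinases. Its arrays read 8.85 and 8.86 at P2 and 10.95 and 10.92 at P10, a rise of 2.08 (SE 0.16, adjusted p = 6.92e-06). Igfbp2, which binds insulin-like growth factors, rose by 2.05 (8.69 and 8.54 to 10.58 and 10.74), and the glutamate receptor subunit gene Gria1 by 2.02 (6.59 and 6.35 to 8.41 and 8.57). Sod3, the extracellular superoxide dismutase, read 6.80 and 6.92 at P2 and 8.92 and 8.74 at P10. Adm, the vasodilator peptide adrenomedullin, read 7.62 and 7.71 and then 9.65 and 9.56. Cemip, which takes part in the breakdown of hyaluronan, rose by 1.77, the transcription factor Hlf by 1.80 and the protease inhibitor A2m by 1.72. The call of A2m was lost without P2 replicate 1, P2 replicate 2 or P10 replicate 2. The other 4 of the 15 are genes of MHC class II, and all 15 except A2m passed in all 4 omissions. A larger rise at a lower level was that of Clca1, a secreted protein of goblet cells, which read 3.32 and 3.35 at P2 and 6.50 and 7.25 at P10. Itln1, the lectin intelectin, rose from 4.83 and 4.88 to 6.49 and 7.15. Both were picked out after their values were seen.

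The 15 largest falls held genes of airway secretion, myeloid cells, fetal growth and cartilage. Ear3, of the eosinophil-associated ribonuclease family, read 10.85 and 10.95 at P2 and 7.06 and 7.02 at P10. The difference of -3.86 (SE 0.17, adjusted p = 1.18e-07) was a 14.5-fold fall, and Adult lungs were back at a mean of 11.4. Members of this family are nearly identical and its probe set is of the x_at type, which can hybridise with related transcripts, so the gene behind the signal is uncertain. Agtr2, the type 2 angiotensin receptor, read 8.62 and 8.23 and then 5.23 and 5.52, a difference of -3.05, and stayed low in Adult lungs (mean 4.83). Olfm4, a secreted glycoprotein of neutrophils and other cells, fell from 8.35 and 8.17 to 5.39 and 5.60. Scgb3a1, a secretoglobin of airway secretory cells, read 12.61 and 12.11 at P2 and 10.20 and 9.79 at P10 and was high again in Adult lungs (mean 12.5). Reg3g, an antimicrobial lectin, fell from 9.45 and 8.50 to 7.16 and 6.94, and Clca3a1 from 7.57 and 7.55 to 5.40 and 5.82. The stefin Stfa3 (9.57 and 9.37 to 6.94 and 7.59) and Slfn4 (8.23 and 7.74 to 6.24 and 6.06) are known from myeloid cells. Cyp1a1, the monooxygenase induced through the aryl hydrocarbon receptor, read 9.41 and 9.15 and then 6.80 and 7.78, and its call was lost without P2 replicate 1, P2 replicate 2 or P10 replicate 1. The kinase gene Nrk (-2.03), Smpx (-1.99) and Fam47e (-1.83) fell as well. All 15 except Cyp1a1 passed in all 4 omissions, and Col9a1, Igf2 and Dlk1 are described with their groups. In the plot of levels on each array, no P2 array of these 30 genes overlaps a P10 array, which their selection makes likely. Among the 30, 13 genes have more than 1 probe set, and in all 13 every probe set differed in the same direction. In 7 of the 13 all probe sets passed. Further probe sets of Cemip (0.39 and 0.03), H2-Aa (0.09), Clca3a1 (-0.54), Dlk1 (-0.16), Col9a1 (-0.21) and Igf2 (-0.30) did not pass.

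**Figure D2:**
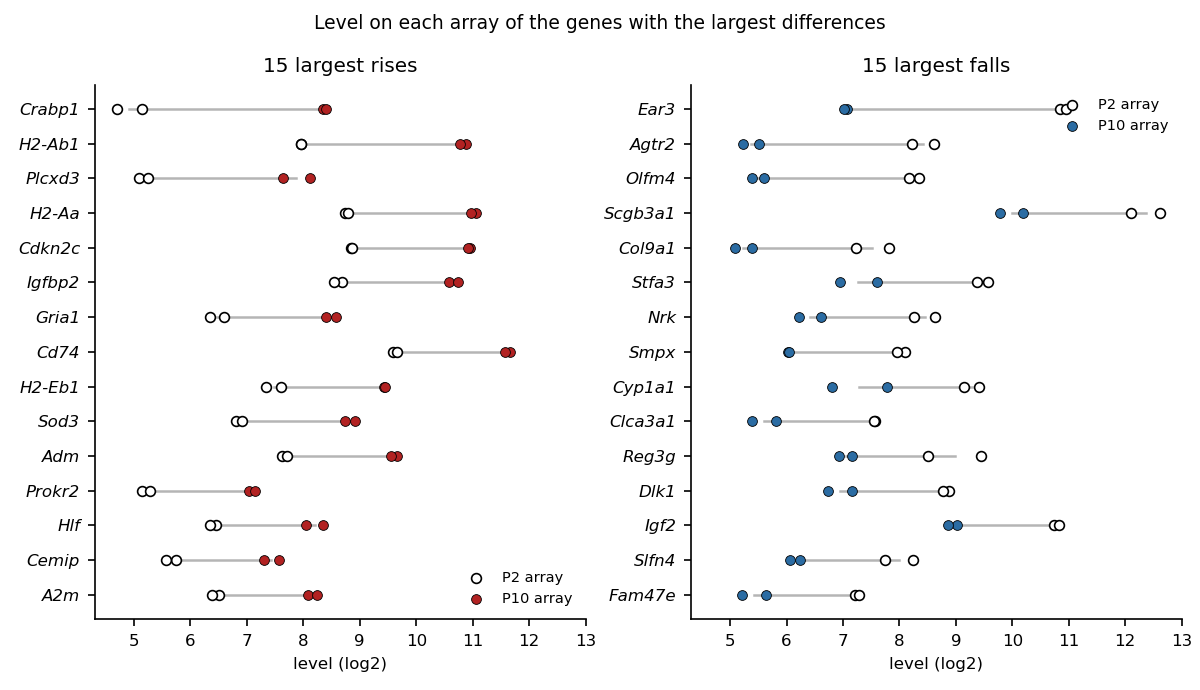
Level (log2) on each P2 array (open circles) and each P10 array (filled circles) for the 15 largest rises (left) and the 15 largest falls (right); grey lines join the means. The arrays of the time points are apart for all 30 genes, which were selected by their difference.

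Genes of the major histocompatibility complex (MHC) class II, whose products present peptides to T helper cells, showed the highest median difference of the groups examined. Of 9 measured members 6 rose (5, 5, 5 and 5 in the omissions) and 3 did not pass. Their median was 1.03, beside 0.01 over all genes. H2-Ab1, a chain of the class II molecule, read 7.96 and 7.96 at P2 and 10.88 and 10.78 at P10. The rise was 2.87 (SE 0.25, adjusted p = 2.08e-05), or 7.30-fold. H2-Aa, its partner chain, rose from 8.74 and 8.79 to 11.05 and 10.96, and H2-Eb1 from 7.34 and 7.60 to 9.43 and 9.45. Cd74, the invariant chain that escorts class II molecules, read 9.59 and 9.66 and then 11.66 and 11.56. H2-Ob, a chain of the DO molecule that restrains peptide exchange, rose by 1.03 at a low level (3.86 and 4.11 to 4.96 and 5.07), and H2-DMa, which helps exchange peptides, rose by 0.45 (adjusted p = 0.0426). The difference of Ciita, the transactivator of these genes, was 0.35 (adjusted p = 0.206), and H2-Oa and H2-DMb2 differed by 0.02 and 0.13 without passing. All of the 6 except H2-DMa passed in all 4 omissions. The means continued upward, with 12.5 for H2-Ab1 and 12.4 for Cd74 in Adult lungs.

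Class II promoters are known to carry a CCAAT box, written ATTGG on the other strand, close to the start of the gene. RefSeq windows from 250 bases before to 50 bases after a start were available for 6 of the 9 members. H2-Ab1, Cd74 and Ciita had none. Of the 7 windows, 6 held CCAAT on either strand (85.7%), as did 37.4% of 32851 windows over all genes. The motif is not particular to class II. It was held by 75.5% of windows of mitosis genes, 71.4% of clock genes, 55.6% of red blood cell genes and 26.3% of elastic fibre genes. H2-DMa, which rose as well, had a pair of windows, 1 without the box and 1 with it 198 bases before the start. H2-Oa and H2-DMb2, which did not pass, had it 43 and 90 bases before the start. The 200 bases before the start are shown for the 3 members that rose and carry the box nearest to the start, in GRCm38.p6, with CCAAT or ATTGG in capitals: H2-Aa (minus strand, chr17:34287824-34288023), H2-Eb1 (plus strand, chr17:34305667-34305866) and H2-Ob (plus strand, chr17:34238705-34238904).
H2-Aa: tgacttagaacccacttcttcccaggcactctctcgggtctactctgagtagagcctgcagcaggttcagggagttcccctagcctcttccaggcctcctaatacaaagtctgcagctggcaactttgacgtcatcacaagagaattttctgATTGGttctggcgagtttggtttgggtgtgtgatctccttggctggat
H2-Eb1: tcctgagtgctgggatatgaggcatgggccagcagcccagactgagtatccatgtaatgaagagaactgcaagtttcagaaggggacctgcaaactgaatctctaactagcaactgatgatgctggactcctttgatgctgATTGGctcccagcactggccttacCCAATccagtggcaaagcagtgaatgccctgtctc
H2-Ob: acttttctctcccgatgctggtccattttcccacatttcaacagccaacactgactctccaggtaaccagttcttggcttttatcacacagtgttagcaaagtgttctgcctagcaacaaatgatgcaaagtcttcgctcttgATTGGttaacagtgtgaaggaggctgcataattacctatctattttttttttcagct
The box begins 48 bases before the start in H2-Aa, 59 and 35 bases before it in H2-Eb1 and 57 bases before it in H2-Ob. The match is a description of these letters and was not tied to the array values. For MHC class I and peptide loading, 4 of 12 measured genes rose (1, 0, 2 and 1 in the omissions), among them Psmb9 by 0.70 and H2-M3 by 0.58.

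Part of the genes of the septal matrix rose. Of 19 elastic fibre genes, 6 rose (3, 4, 6 and 4 in the omissions) and 13 did not pass. Eln, the elastin precursor, read 12.72 and 12.80 at P2 and 13.67 and 13.66 at P10, a rise of 0.90 (SE 0.18, adjusted p = 0.00992) or 1.87-fold. Ltbp2, a protein of microfibrils that binds fibulin-5, rose most, from 10.45 and 10.61 to 11.97 and 12.37. Loxl1, a cross-linking enzyme of elastin, read 10.96 and 10.92 and then 11.72 and 11.96. Loxl3 (0.50), Ltbp3 (0.77) and the microfibril gene Mfap2 (0.43) also rose. The fibrillin gene Fbn2 (-0.25), Lox (-0.13), Mfap4 (0.37) and the elastin-binding fibulin-5, Fbln5 (0.26), did not pass. All 6 called genes had their highest mean of the 7 time points at P10, which choosing genes that rose to P10 favours. Eln had read 13.56 and 13.43 at E18, close to its P10 level, before the lower level at P2. In Adult lungs Eln was at a mean of 10.7. Ltbp2, Loxl1 and Ltbp3 passed in all 4 omissions.

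Of 23 collagen chains, 11 rose and 12 did not pass, with a median of 0.39. The chains of cartilage were counted apart, and 3 of them fell, Col9a1 (-2.29), Col11a1 (-1.08) and Col2a1 (-0.54). The basement membrane chain Col4a2 rose by 0.65 (12.34 and 12.40 to 12.92 and 13.11) and its partner Col4a1 by 0.49. The fibril-forming chain Col1a2 read 13.50 and 13.50 and then 13.96 and 14.00, a rise of 0.48 (SE 0.09, adjusted p = 0.00706), while Col1a1 differed by 0.39 (adjusted p = 0.232). Col16a1 rose by 0.58, Col15a1 by 0.54, Col5a1 by 0.53 and Col3a1 by 0.39. The count of rises was 2, 3, 10 and 2 in the omissions, and Col4a2 and Col16a1 passed in all 4. In the plot of matrix genes the P2 and P10 arrays are apart for each gene that rose, as for every called gene.

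**Figure D3:**
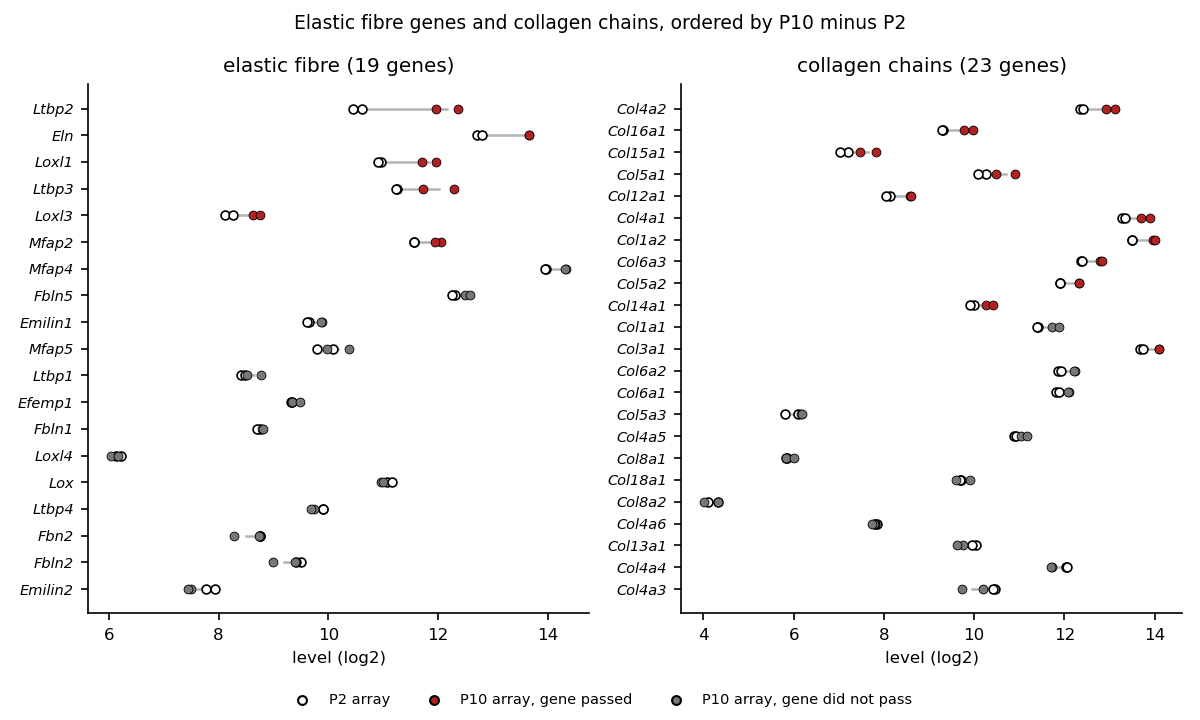
Level (log2) on each P2 array (open) and P10 array (filled) of 19 elastic fibre genes and 23 collagen chains, ordered by the difference, without the cartilage chains; red marks genes that passed an adjusted p under 0.05. The 6 elastic fibre genes at the top and 11 collagen chains rose, and Col4a3 has the most negative difference, -0.48, without passing.

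Among genes that modify and cut the matrix, rises outnumbered falls. Of 17 collagen processing genes, 7 rose (3, 2, 6 and 2 in the omissions) and 10 did not pass. The largest rises were those of the prolyl hydroxylase subunit P4ha3 (5.95 and 5.88 to 6.97 and 6.98) and of Pcolce2, an enhancer of procollagen cleavage, at 0.74. Among 34 glycoproteins and proteoglycans, 10 rose (5, 5, 7 and 6 in the omissions) and 1 fell. Thrombospondin 2 (Thbs2) rose by 1.25, Prelp by 1.15, asporin (Aspn) by 1.02, Spon2 by 0.99 and Tgfbi by 0.76, and the cartilage link protein Hapln1 fell by 1.14. Thbs2, Prelp and Spon2 passed in all 4 omissions, Aspn and Tgfbi in 0. The tenascin C gene, Tnc, read 11.48 and 11.36 and then 12.30 and 12.38. With an SE of 0.27, which draws on the spread at all 7 time points, Tnc did not pass (adjusted p = 0.0649 in limma). Of 26 proteases and inhibitors, 8 rose (4, 4, 6 and 6 in the omissions) and 3 fell. Plat, the tissue plasminogen activator, rose from 8.99 and 8.97 to 10.66 and 10.50, a rise of 1.60 (SE 0.12, adjusted p = 5.57e-06). Adamts10 (0.97), the inhibitor Timp2 (0.94) and the gelatinase Mmp2 (0.58) rose, whereas the neutrophil collagenase Mmp8 (-1.42) and Mmp11 (-0.51) fell. These 5 genes and Plat passed in all 4 omissions.

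Markers of alveolar myofibroblasts, the elastin-producing cells of the septal tip, were largely higher. Of 16 measured, 10 rose (8, 7, 8 and 6 in the omissions) and 1 fell, with a median of 0.69. Pdgfra, the receptor through which these cells respond to PDGF-A, read 10.61 and 10.81 at P2 and 11.55 and 11.52 at P10, a rise of 0.82 (SE 0.09, adjusted p = 1.47e-04). P2ry14, a nucleotide sugar receptor, rose by 1.34 (10.42 and 10.40 to 11.68 and 11.82). Egfem1 rose by 1.30, Mustn1 by 1.11, Cdh4 by 1.06, Wnt5a by 1.01 and, in the fit to all arrays, Aspn by 1.02. Hhip, an inhibitor of hedgehog ligands, fell by 0.69 (10.29 and 10.28 to 9.54 and 9.65). The contractile genes Acta2 (0.08) and Tagln (0.29) did not pass, nor did Pdgfa, the ligand (-0.07). Of 20 smooth muscle contraction genes, 4 rose (4, 2, 5 and 3 in the omissions), among them Itga8 by 0.80 and Cald1 by 0.67. Among 17 lipofibroblast genes, 2 rose (1, 1, 1 and 2 in the omissions) and 2 fell (0, 0, 2 and 2): Lrat (1.13), which stores retinol as esters, and Npnt (0.73) rose, while the lipid droplet gene Plin2 (11.78 and 11.81 to 11.37 and 11.42) and Fabp5 (-0.41) fell. Of these 4, Npnt passed in all 4 omissions.

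Signalling genes were counted by pathway. Of 22 FGF and PDGF genes, 7 rose (5, 4, 6 and 3 in the omissions) and 1 fell. Fgfr1 rose from 8.61 and 8.57 to 9.54 and 9.80, while Fgfr2, the receptor of the epithelium, fell from 11.12 and 11.12 to 10.68 and 10.47. The mesenchymal ligand Fgf18 rose by 0.62. Among 39 TGF-beta and BMP genes, 9 rose (4, 3, 7 and 4 in the omissions) and 1 fell. The ligand Tgfb3 rose from 8.51 and 8.59 to 9.80 and 9.88, the largest change of the group (1.29, SE 0.09, adjusted p = 3.94e-06), followed by Bmp2 (0.77), Tgfb2 (0.72), Bmp6 (0.67) and Bmp1 (0.66). The receptor Bmpr1b fell by 0.66. Of 44 Wnt genes, 6 rose (5, 4, 7 and 4 in the omissions) and 3 fell (2, 2, 3 and 1). Wnt11 (7.69 and 7.86 to 9.17 and 9.23), the receptor Lgr6 (6.97 and 6.98 to 7.81 and 8.50) and Wnt5a rose by 1.42, 1.18 and 1.01, as did the inhibitors Wif1 (0.72) and Dkk3 (0.70), and Dkk2 (-0.89), Rspo1 (-0.77) and Sfrp2 (-0.59) fell. Of 12 hedgehog genes 2 fell (2, 1, 2 and 2 in the omissions), Hhip and the ligand Shh, which read 11.58 and 11.68 and then 11.08 and 10.99. Gli1, a target of the pathway, differed by 0.02. Of 20 Notch genes, Heyl, Dll4 and Dll1 rose by 0.38 to 0.47 (0, 0, 4 and 0 rises in the omissions) and Jag1 fell by 0.63 (0, 0, 0 and 1). Of 20 retinoic acid genes, Crabp1, Lrat and Rxrg rose (1, 2, 2 and 3 in the omissions) and Aldh1a2, which makes retinoic acid, fell by 0.73 (1, 0, 1 and 0). Of these, Crabp1 passed in all 4 omissions.

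Rises among endothelial genes were small. Of 34 measured, 14 rose (6, 5, 13 and 4 in the omissions) and 1 fell (0, 1, 1 and 0), with a median of 0.29. Gpihbp1, a protein of capillary endothelium, read 10.27 and 10.16 and then 11.00 and 11.12, a rise of 0.85 (SE 0.13, adjusted p = 0.00151). Ace, which makes angiotensin II, rose by 0.78, Sox17 by 0.74, Sox7 by 0.66, Cd34 by 0.64 and the cadherin Cdh5 by 0.56. Pecam1 (0.03) and Kdr (0.06), which also mark endothelium, did not pass. Gpihbp1, Sox17 and Cd34 passed in all 4 omissions. Of 14 mural cell genes, 3 rose (2, 2, 3 and 2 in the omissions) and 1 fell (0, 0, 1 and 0). Rgs5, a pericyte marker, went from 9.52 and 9.40 to 10.89 and 11.35, Pdgfrb rose by 0.99 and the potassium channel gene Kcnj8 fell by 0.57, a call held in 1 of the 4 omissions. Rgs5 and Pdgfrb passed in all 4. Of 8 lymphatic genes, 4 fell (2, 3, 3 and 3 in the omissions) and 4 did not pass. Lyve1, the hyaluronan receptor of lymphatic endothelium, read 10.98 and 11.06 and then 9.82 and 10.02, and Mmrn1 (-1.05) and Reln (-0.73) also fell. Flt4, another member, read 8.71 and 8.78 and then 8.72 and 9.08 and did not pass. Of the 8 differences, 6 were negative and 2 positive. Lyve1 and Mmrn1 passed in all 4 omissions. Of 18 capillary and vasoactive genes, 3 rose (2, 1, 2 and 2 in the omissions) and 3 fell (3, 3, 3 and 3). The endothelin receptor Ednrb fell from 11.61 and 11.66 to 10.59 and 10.69, and the natriuretic peptide receptor Npr3 fell by 0.84.

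Few epithelial genes rose. Of 18 alveolar type II markers, Pon3 fell by 0.69 (0, 1, 1 and 1 in the omissions) and 17 did not pass, and 17 of the 18 differences were negative, with a median of -0.21. Of 15 alveolar type I markers, Igfbp2 rose (1, 1, 1 and 1 in the omissions) and Akap5 (-0.62) and Gprc5a (-0.37) fell (1, 0, 2 and 1), and Hopx differed by 0.14. Ciliated cell genes were largely lower. Of 28 measured, 16 fell (9, 11, 9 and 16 in the omissions) and 12 did not pass, 27 differences were negative, and the median was -0.54. Dynlrb2, a dynein light chain gene, read 10.03 and 9.94 at P2 and 8.67 and 9.08 at P10, a difference of -1.10 (SE 0.16, adjusted p = 9.94e-04). Enkur (-1.13), Ccdc113 (-1.09), Rsph4a (-0.89), a gene of the radial spoke of cilia, and Ccdc153 (-0.87) also fell. Foxj1, the regulator of motile cilia, read 7.30 and 7.22 and then 6.76 and 6.98 and did not pass (adjusted p = 0.280). Dynlrb2, Enkur, Ccdc113 and Ccdc153 are among 9 that passed in all 4 omissions. Of 19 club and secretory genes, Scgb3a1, Reg3g, Cckar (-0.95) and Chad (-0.69) fell (3, 4, 3 and 4 in the omissions) and 15 did not pass. Scgb1a1, the club cell secretoglobin, differed by -0.02. Among 36 transcription factors of lung development, 7 rose (1, 2, 6 and 2 in the omissions) and 4 fell (1, 1, 3 and 2). The epithelial factors Klf5 (-0.93), Elf5 (-0.78), Nkx2-1 (-0.76) and Foxa1 (-0.51) fell and the mesenchymal factors Twist1 (0.90), Foxf2 (0.79) and Tbx4 (0.46) rose, together with Sox4, Prrx2, Klf4 and Hoxa5. Klf5 and Twist1 passed in all 4 omissions.

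**Figure D4:**
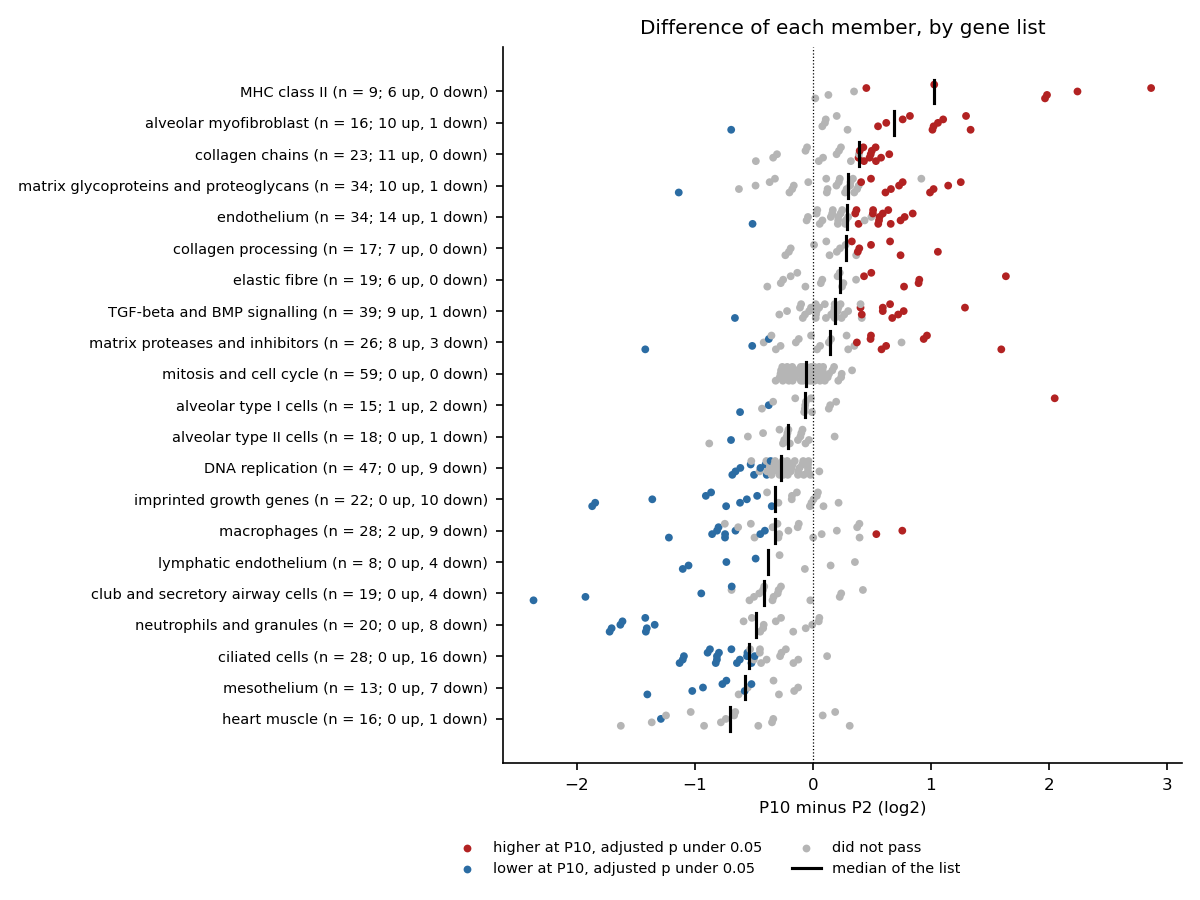
Difference between P10 and P2 (log2) of each measured member of 21 gene lists, ordered by the median of the list (black bar); red and blue points passed an adjusted p under 0.05. The medians run from 1.03 for MHC class II to -0.70 for heart muscle, and the 59 mitosis genes lie close to 0.

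Neutrophil genes were lower at P10. Of 20 measured, 8 fell (7, 8, 8 and 8 in the omissions) and 12 did not pass. S100a8 and S100a9, the subunits of calprotectin, read 12.89 and 12.78, and 12.35 and 12.25, at P2; at P10 they read 11.23 and 11.22, and 10.63 and 10.53. The difference for S100a9 was -1.72 (SE 0.23, adjusted p = 6.17e-04). The granule protein gene Ngp (-1.63), Stfa2l1 (-1.71), and the genes of lactoferrin, Ltf (-1.41), and cathelicidin, Camp (-1.42), also fell. The primary granule genes Mpo (5.53 and 5.69 to 5.75 and 5.46) and Elane (5.65 and 5.77 to 5.76 and 5.77) lay below the array medians at both time points. The mean level of the 20 genes was 8.46 and 8.33 at P2 and 7.62 and 7.64 at P10. Olfm4, Stfa3 and Slfn4, among the largest falls, moved in the same direction, and the part of neutrophil number in them was not tested. Of 28 macrophage genes, 2 rose (0, 0, 1 and 1 in the omissions) and 9 fell (3, 3, 9 and 3). The chemokines Ccl9 (9.23 and 9.08 to 7.85 and 8.03) and Ccl6 (-0.74), Mpeg1 (-0.74), Olr1 (-0.85) and Plet1 (-0.81) fell, while the scavenger receptor Marco (0.76) and the complement gene C1qc (0.54) rose. Ccl9 and Mpeg1 passed in all 4 omissions. Of 10 genes of mast cells, basophils and eosinophils, 4 fell (1, 2, 1 and 4 in the omissions), among them Mcpt8 (-1.01) and Cpa3 (-0.74). Of 24 T and NK cell genes 2 rose (8.33%, near the 4.82% of all genes) and 0 fell.

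Genes of fetal growth were lower at P10. Of 22 imprinted growth genes, 10 fell (6, 8, 8 and 8 in the omissions) and 12 did not pass. Igf2, the fetal insulin-like growth factor, read 10.75 and 10.82 at P2 and 9.03 and 8.85 at P10, a difference of -1.84 (SE 0.11, adjusted p = 1.03e-06). Dlk1 fell by 1.87 (8.88 and 8.76 to 6.74 and 7.16), and Meg3, the noncoding RNA of the same imprinted cluster, went from 11.68 and 11.60 to 10.12 and 10.43. Mest (-0.91) and the transcription factor gene Plagl1 (-0.86) fell. Of 18 measured genes listed as fetal targets of the let-7 microRNAs, 3 fell (3, 3, 4 and 3 in the omissions), Igf2bp3 (-1.54), Hmga2 (-0.76) and Plagl1, and 1 rose, Col1a2 (0, 0, 2 and 0). Their median was -0.01. By contrast Igf1, the postnatal growth factor, rose by 0.74 (10.88 and 10.72 to 11.33 and 11.76), and the binding proteins Igfbp4 and Igfbp5 rose by 0.61 each. Of these 3, Igfbp5 passed in all 4 omissions.

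No mitosis gene passed. Of 59 measured, 0 passed by limma, and the median was -0.05. At an unadjusted p under 0.05 in limma were 8 of the 59, beside 4219 of 18193 genes over all. Mki67 read 9.80 and 9.92 at P2 and 9.71 and 10.04 at P10, without a difference between the time points larger than the array spread (difference 0.02, SE 0.12). Of 47 DNA replication genes, 9 fell and 38 did not pass, with 46 differences negative and a median of -0.27. Pcna, the clamp of the replicative polymerases, read 12.43 and 12.38 and then 11.96 and 12.04. Dscc1 (-0.68), Cdc6 (-0.65) and Mcm6 (-0.61) were among the others. The count was 0, 1, 0 and 13 in the omissions. Of 20 inhibitors and G1 cyclins, Cdkn1c (-0.62), Btg2 (-0.68) and Cdkn2b (-0.44) fell (1, 3, 2 and 1 in the omissions), while Cdkn2c and Ccng2 (0.45) rose (1, 1, 4 and 1).

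Hormone, clock and metabolic genes gave shorter lists of changes. Of 21 glucocorticoid-responsive genes, 2 rose (2, 1, 2 and 1 in the omissions) and 5 fell (2, 5, 5 and 3). Fkbp5 read 8.46 and 8.35 and then 7.23 and 7.42, a difference of -1.08 (SE 0.12, adjusted p = 1.16e-04), and the metallothionein gene Mt1 fell by 1.06. Hsd11b1 (0.65), which regenerates active glucocorticoid, and Hsd11b2 (1.11), which inactivates it, both rose. Of 18 clock genes, the output factors Hlf (6.45 and 6.35 to 8.05 and 8.35) and Dbp (6.91 and 6.84 to 7.62 and 8.12) and the repressor Nr1d2 (0.47) rose (2, 2, 3 and 2 in the omissions), and Per2 fell by 0.55 (0, 1, 0 and 1). The hour of collection is not given in the labels, and its part in these values was not tested. Of 35 xenobiotic genes, 2 rose (0, 0, 1 and 0 in the omissions) and 6 fell (1, 3, 4 and 6), among them Pon1 (9.79 and 9.29 to 8.09 and 8.23). Of 27 glycolysis and hypoxia genes, Adm rose (1, 1, 2 and 1 rises in the omissions) and Aldoc (-0.66), Slc2a1 (-0.64), Egln3 (-0.62) and Bnip3 (-0.44) fell (1, 1, 1 and 2 falls). Of 19 genes of ion transport and lung liquid 4 fell (2, 3, 4 and 3), the largest fall being that of the water channel Aqp4 (7.49 and 7.45 to 5.63 and 6.65).

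Genes of neighbouring tissues were lower in part. Of 13 mesothelial genes, 7 fell (6, 4, 8 and 4 in the omissions), and all 13 differences were negative. Msln, mesothelin, read 10.86 and 10.82 and then 9.51 and 9.36. Of 17 cartilage genes, 6 fell (3, 5, 4 and 4), among them Col9a1 (7.81 and 7.23 to 5.39 and 5.08), Hapln1 and Col11a1. The mean level of 16 heart muscle genes was 8.75 and 8.54 at P2 and 7.90 and 8.02 at P10, and their median difference of -0.70 was the most negative of all lists. By the fit to all arrays 1 of the 16 passed, the atrial light chain Myl7, which fell by 1.29 and passed in 0 of the 4 omissions. In the fit to the 4 arrays of P2 and P10 alone, 10 of the 16 were lower. Smpx, a muscle gene among the largest falls, moved with them, and the part of carried-over heart, cartilage or pleura in these falls was not tested. By limma in the fit to all arrays, 0 of 16 skeletal muscle, 10 adipose, 12 thymus and 26 red blood cell genes passed. Their numbers at an unadjusted p under 0.05 were 1, 1, 3 and 5, beside 4219 of 18193 genes over all. In the fit to the 4 arrays alone, 2 of the 16 skeletal muscle genes were lower and 0 higher.

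Over the whole course, P10 was the highest time point for most genes with a rise of more than 1.2. Of the 48 genes with a rise of more than 1.2, 36 had their highest mean of the 7 time points at P10, whereas 8 of the 48 genes with such a fall had their lowest mean there. Choosing genes by a rise or fall from P2 to P10 favours an extreme at P10, and the share over all genes is not given here. These counts describe the means and were not tested. The plot of levels over the course shows several forms. Crabp1 and Ltbp2 stood highest at P10, and H2-Ab1 climbed on to Adult. Scgb3a1 and Ear3 dipped at P10 between high levels at P2 and in Adult lungs, whereas Agtr2 fell by P10 and stayed low in Adult lungs.

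**Figure D5:**
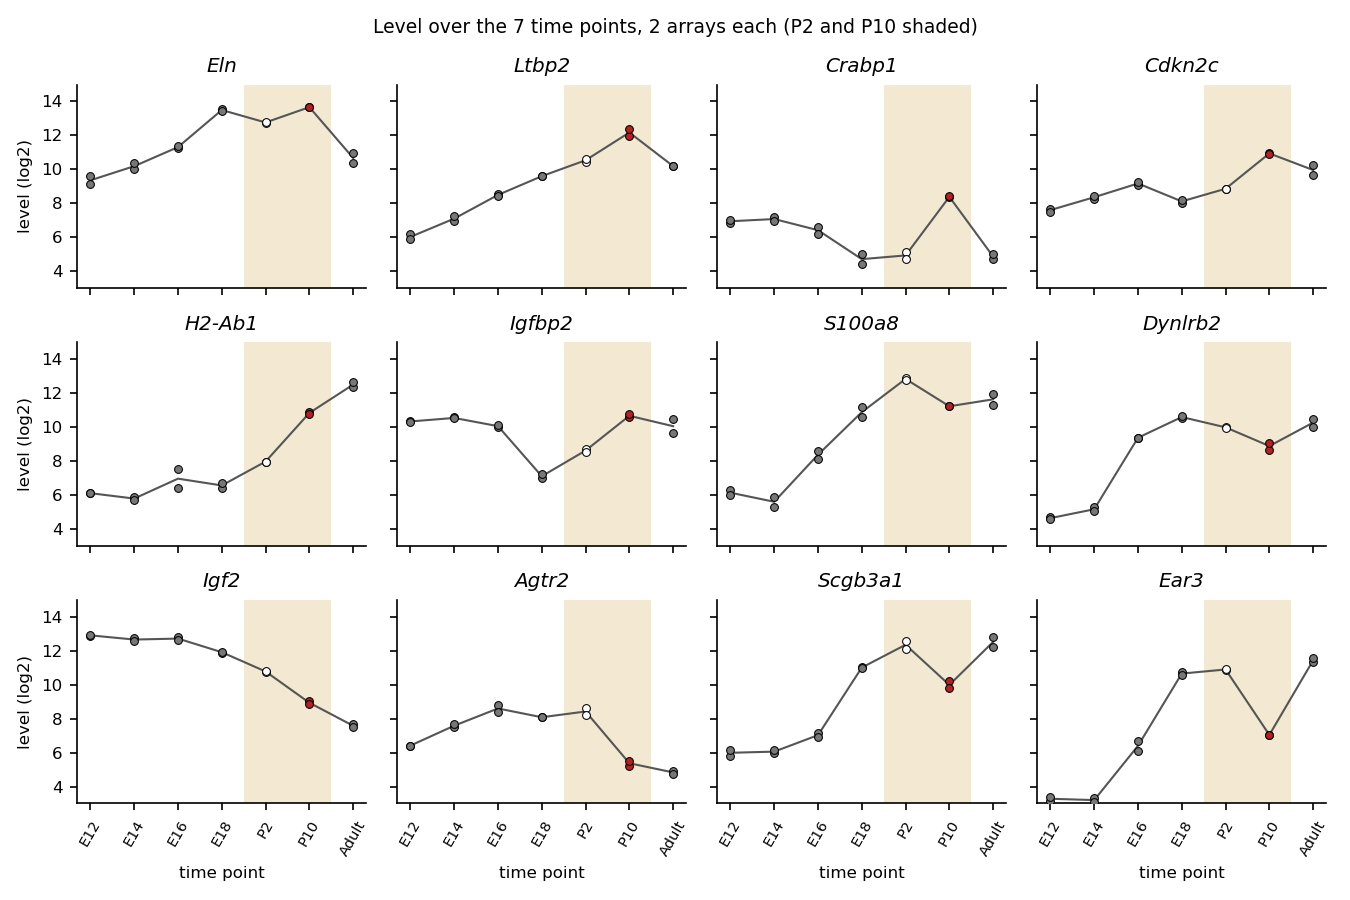
Level (log2) of 12 genes on all 14 arrays against time point (E12 to Adult, not to scale in days); points are arrays, lines join the means, and P2 (white points) and P10 (red points) lie in the shaded band. Eln, Ltbp2, Crabp1, Cdkn2c and Igfbp2 have their highest mean at P10, and Scgb3a1 and Ear3 are lower at P10 than at P2 and Adult.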

How the data were processed

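Total RNA of pooled whole ICR mouse lungs was hybridised to Affymetrix mouse expression arrays, 2 per time point. The values are log2 levels as deposited by the authors. Robust Multichip Average in Partek Genomics Suite 6.4 is given in the study's methods, whereas GCRMA is given in the submitters' processing notes beside Partek 6.4, without a version. Both correct for background and normalize all arrays together, and changes of dim probe sets are uncertain in size. The number of arrays limits the precision. The 64 AFFX controls were left out. Of 45037 probe sets, 34945 had 1 symbol in the platform annotation, 932 had several and 9160 had none; the last 2 kinds stayed in the adjustment and named no gene. The probe set of highest average level stood for its gene.

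A linear model with 7 time point means over all 14 arrays was fitted in limma 3.58.1 (R 4.3.3) with moderated variances (residual df 7, prior df 6.04), and P10 minus P2 was tested in both directions with Benjamini-Hochberg adjustment over all probe sets. Large changes needed a difference above 1.2 and a level above 7, thresholds taken from the study's methods. Named genes are the 15 largest rises and falls among large changes, without clones and predicted genes, and from each gene list up to 5 called members in each direction and the members that define it. Lists were described by counts and medians, with no set test. The members and lists were chosen with earlier results of these data known. Promoter windows came from RefSeq (GRCm38.p6).

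Same-numbered replicates did not deviate together, with correlations of -0.18 to 0.077 over 21 pairs of time points. Alternatives were fits to other sets of arrays, a block, other variance models, normalization, filters and probe sets per gene, and leaving out each of the 4 arrays.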

Additional observations from a re-analysis of the deposited data

How the results depend on the processing

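Without moderation of the variances 570 genes rose and 550 fell. Leaving out 1 of the 4 arrays gave 322 to 905 rises and 262 to 563 falls, and 41 to 68 large rises and 33 to 59 large falls. Of the 1671 genes called with all arrays, 579, 707, 1162 and 744 passed without P2 replicate 1, P2 replicate 2, P10 replicate 1 and P10 replicate 2, all in the same direction; a time point with 1 array is assumed to vary like the others. Of the 96 large changes, 87 to 93 passed in these fits. The other alternatives kept all 4 counts within 1.5 times: 4 arrays only (618 rises and 649 falls), quantile normalization (979 and 822), an intensity trend (1056 and 974), a mean level above 6 (984 and 848), adjustment over genes (1095 and 990), the probe set of largest variance (901 and 881), the mean of the probe sets (1006 and 1063) and fits without the E16 arrays (834 and 798). A fit without the 3 earliest time points, chosen after seeing the data, gave 706 and 698. Similar counts do not mean the same genes. Of the 1671 genes, 1128 passed in the fit to 4 arrays only. With the probe set of largest variance 1540 passed, 1539 of them in the same direction, and with the mean of the probe sets 1438 passed. Under these last 2 choices 22 and 4 of the 1671 genes changed sign. Of the 30 genes with the largest changes, 28 passed under every alternative that tested them and none changed direction; A2m and Cyp1a1 did not pass without moderation or in 3 of the 4 omissions each.

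With the replicate number as a block 783 genes rose and 714 fell, with 48 large rises and 48 large falls. The numbers do not pair the samples. With the P10 numbers crossed, chosen after seeing that the P2 and P10 deviations correlated at -0.12, the block gave 859 rises and 759 falls.

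With 2 arrays a time point, the smallest called difference was 0.29, and 4219 genes had an unadjusted p under 0.05. The mixed sex signal, the number of animals behind an array and the choice of background correction could not be examined further, and changes below the array median rest on dim probe sets.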

Other observations

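Among the other genes with a change of more than 1.2, those given here were picked out after their values were seen. Sema3c, a secreted semaphorin, read 11.14 and 11.08 at P2 and 12.31 and 12.41 at P10, and the netrin gene Ntn4 rose by 1.21. The contactin gene Cntn1 rose by 1.54 and Slitrk6 by 1.47. In the other direction Epha3, an ephrin receptor gene, read 9.80 and 9.76 and then 8.20 and 8.33, a difference of -1.51 (SE 0.11, adjusted p = 4.03e-06 in limma). Of 15 nerve and glia markers, 2 rose (S100b by 0.67 and Gap43 by 0.43; 2, 1, 1 and 1 in the omissions) and Erbb3 (-0.59) fell (0, 0, 1 and 1), with a median of 0.02.

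The claudin genes Cldn10 (9.54 and 9.52 to 8.15 and 8.25) and Cldn4 (7.99 and 7.93 to 6.98 and 6.51) fell, whereas Cldn5, the claudin of endothelium, rose by 0.51. Fgfbp1, which binds fibroblast growth factors, fell from 9.63 and 9.45 to 8.24 and 8.23. Pf4, a chemokine of platelets, fell from 10.70 and 10.54 to 9.30 and 9.53.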
